A study of Heterocephalus glaber with 23 samples.

Results

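The 10 genes reported here belong to hepatic nitrogen disposal. They were followed through liver RNA-seq of 23 naked mole-rats (NMR): the mitochondrial enzymes CPS1, NAGS and OTC, the cytosolic enzymes ASS1, ASL and ARG1, the mitochondrial carriers SLC25A15 and SLC25A13, and the ammonia-releasing enzymes GLS2 and GLUD1. They were chosen by name as members of the pathway, and each of the 10 matched a single row among the 16339 rows of the count table. All 10 passed the filter on low counts, which left 12306 genes for testing. The study asked how breeding status and sex shape the transcriptome of an animal that lives in colonies where reproduction is left to a few individuals. The libraries came from 6 female breeders, aged 3.52 ± 0.183 years (SD), 5 female non-breeders (3.42 ± 0.669 years), 6 male breeders (3.52 ± 0.571 years) and 6 male non-breeders (3.42 ± 0.564 years). The labels name no engineered allele and no drug for any group. Breeders were animals taken out of their natal colony and paired with an unrelated partner, while non-breeders were litter siblings that stayed behind, so colony and housing cannot be told apart from status. Female and male breeders were also sampled at different times after the last birth, which cannot be told apart from sex among breeders.

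The urea cycle turns ammonia and the nitrogen of amino acids into urea, which the kidney excretes, and in mammals the complete cycle runs mainly in periportal hepatocytes. CPS1 joins ammonia and bicarbonate in the mitochondrion and depends on N-acetylglutamate, which NAGS makes. OTC adds ornithine to give citrulline, ASS1 and ASL carry citrulline over to arginine in the cytosol, and ARG1 splits arginine into urea and ornithine. SLC25A15 exchanges ornithine and citrulline across the inner mitochondrial membrane, SLC25A13 exports the aspartate that ASS1 uses, GLS2 is the liver-type glutaminase that frees ammonia from glutamine, and GLUD1 is glutamate dehydrogenase. A few pericentral hepatocytes take up the remaining ammonia as glutamine through glutamine synthetase, GLUL.

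Levels are given as CPM, counts relative to a library size that was scaled by TMM. Library totals lay between 11826665 and 22969366 counts. The 10 genes together took 0.966% ± 0.132 of the counts (SD, n = 23), with 0.723% in male non-breeder 3 as the lowest share and 1.24% in female breeder 1 as the highest. CPM are not corrected for transcript length, so levels are compared between livers and not between genes. In bulk tissue, fewer hepatocytes and less RNA per hepatocyte cannot be told apart.

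Before the group comparisons, 3 livers had to be set aside for a second look, since they stood apart from the other 20 on the first principal component of all tested genes (26.4% of the variance). These were female breeder 6, male breeder 5 and male non-breeder 3, 1 each from 3 of the 4 groups. MTRNR2L4, a gene with a sequence close to mitochondrial ribosomal RNA, stood at 79092, 79602 and 133129 CPM in them, against 19987 to 56702 CPM in the other 20. The summed level of 8 hepatocyte markers ranged from 120667 to 146352 CPM in the 3 and from 131293 to 245198 CPM in the other 20, and none of the 8 was at 0. Of the 6 red-cell markers, the 5 present summed to 388 to 873 CPM in the 3, against 96.6 to 750 CPM in the other 20. Cholangiocyte markers summed to 173, 244 and 316 CPM in the 3, against 148 to 237 CPM. Neutrophil markers summed to 34.8 to 261 CPM, against 18.2 to 204 CPM. Macrophage, lymphocyte, endothelial, stellate and skeletal muscle sums of the 3 lay inside the range of the other 20. The 3 intestinal and pancreatic markers present did not exceed 3.73 CPM in any liver. The comparisons were also run without these 3.

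CPS1 was the member in which these 3 livers differed most. It stood at 804 CPM in female breeder 6, 762 CPM in male breeder 5 and 304 CPM in male non-breeder 3, whereas the other 20 livers ranged from 1627 to 4468 CPM. All 3 were therefore below every other liver, by 3.92-, 2.85- and 7.61-fold relative to the mean of the rest of their own group. SLC25A13 followed, with 87.2, 61.8 and 27.9 CPM in the same order, against 88.0 to 177 CPM in the other 20. SLC25A15 was at 88.6 and 73.1 CPM in female breeder 6 and male non-breeder 3, just under and well under the lowest of the other 20 (88.9 CPM), while male breeder 5 lay inside their range at 114 CPM. The low level was not shared by the whole cycle: ARG1, ASL, NAGS, GLS2 and GLUD1 lay inside the range of the other 20 in all 3 livers. OTC left that range in male non-breeder 3 (328 CPM against a lowest value of 349 CPM) and ASS1 in female breeder 6 (1414 CPM against 1452 CPM). The part that MTRNR2L4, RNA of other cell types or tissue quality has in the low CPS1 was not tested. These values are a description of 3 livers chosen for standing apart.

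**Figure D1:**
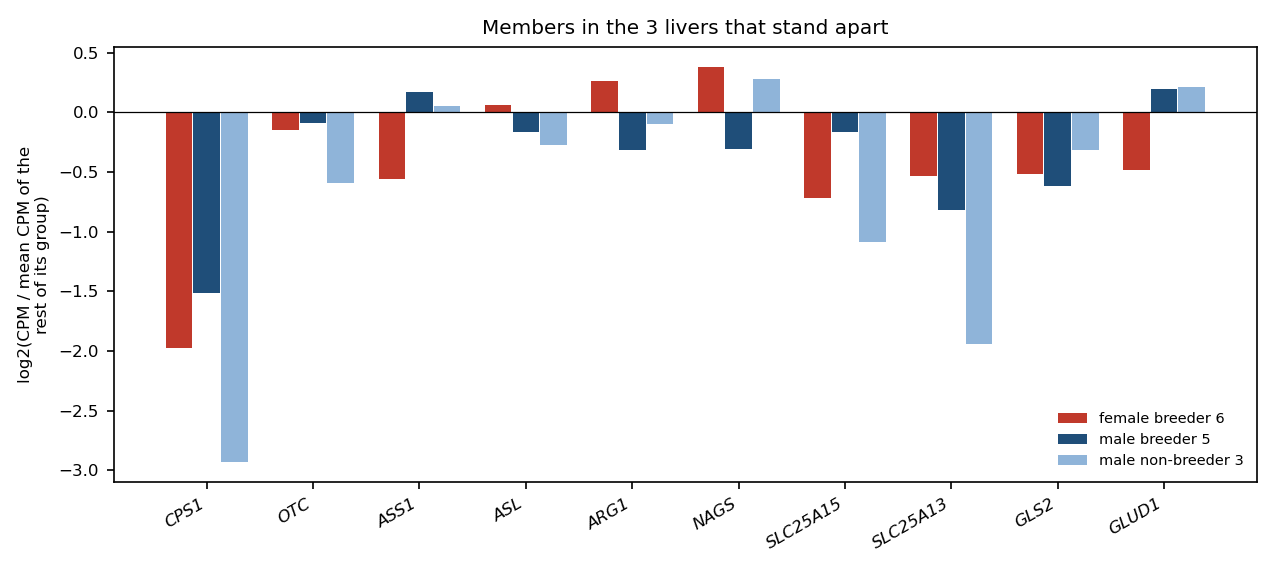
Log2 ratio of each member's CPM in a liver to the mean CPM of the rest of that liver's group, for female breeder 6, male breeder 5 and male non-breeder 3 (bars, linear log2 axis). CPS1 is lowest in all 3, down to -2.93 in male non-breeder 3. SLC25A13, SLC25A15, OTC and GLS2 are also below 0 in all 3, and ARG1, NAGS, ASS1, ASL and GLUD1 lie on both sides of 0.

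Variation between animals of 1 group differed among the members. The biological coefficient of variation, the between-animal spread estimated by edgeR, was 0.469 for CPS1, higher than in 92.1% of all genes tested. ARG1, the last step, had the smallest value of the 10 at 0.182 (percentile 23.6), followed by OTC at 0.205 (percentile 35.3) and ASS1 at 0.221 (percentile 42.6). The remaining members lay between 0.243 (NAGS, percentile 50.9) and 0.299 (SLC25A13, percentile 68.4). The median over all genes was 0.240 and the common value 0.289. For CPS1 and SLC25A13 the coefficients rest on the 3 livers. Without them the coefficient was 0.239 for CPS1 (percentile 66.5), below ASL, GLS2, GLUD1 and NAGS (0.24 to 0.282), and 0.171 for SLC25A13 (percentile 35.0), below ARG1 at 0.177. Over the other 20 livers CPS1 ranged 2.75-fold, from 1627 to 4468 CPM, against 4.89-fold for GLS2.

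None of the 10 members passed an adjusted p of 0.05 in any comparison with edgeR's quasi-likelihood test, whether between statuses, between sexes, in the difference of both or along age. Few genes passed at all: 0.0% of the 12306 for breeder against non-breeder in females (NMR-F-BvN), in males (NMR-M-BvN) and over both sexes (NMR-BvN), 0.0325% and 0.0488% for female against male in non-breeders (NMR-N-FvM) and in breeders (NMR-B-FvM), and 0.065% over both statuses (NMR-FvM). At an unadjusted p of 0.05 the members counted 1, 1 and 2 of 10 in the status comparisons NMR-F-BvN, NMR-M-BvN and NMR-BvN, where 3.7%, 5.88% and 7.94% of all genes did. In the sex comparisons NMR-N-FvM, NMR-B-FvM and NMR-FvM they counted 2, 1 and 2 of 10, beside 5.15%, 5.89% and 10.4% of all genes. Without the 3 livers the counts were 1 of 10 in each of NMR-F-BvN, NMR-M-BvN and NMR-BvN, beside 5.29%, 5.95% and 8.99% of all genes. They were 1 (ASS1), 2 (CPS1 and NAGS) and 4 (CPS1, ASS1, NAGS and SLC25A13) of 10 in NMR-N-FvM, NMR-B-FvM and NMR-FvM, beside 3.91%, 10.1% and 11.4%. DESeq2 called 1 member, GLS2 in NMR-BvN, where 0.232% of the genes it tested passed. In NMR-F-BvN, NMR-M-BvN, NMR-N-FvM, NMR-B-FvM and NMR-FvM it called 0 members, beside 0.0322%, 0.0129%, 0.0387%, 0.155% and 0.468% of all genes, and 0 in the difference of the status changes and along age (0.00644% and 0.0129%). Limma voom called 0 members throughout, beside at most 0.163% of all genes (NMR-FvM), 0.0406% in NMR-BvN and NMR-B-FvM, 0.0325% in NMR-N-FvM, 0.00813% in NMR-M-BvN and 0.0% elsewhere. The CPM ranges of both groups overlapped for all 10 members in each of the 6 comparisons, while they did not overlap for 0.284% of all genes in NMR-N-FvM, 0.349% in NMR-B-FvM, 0.309% in NMR-F-BvN, 0.431% in NMR-M-BvN, 0.0% in NMR-BvN and 0.0488% in NMR-FvM. The comparisons share groups, so they are not independent of each other.

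**Figure D2:**
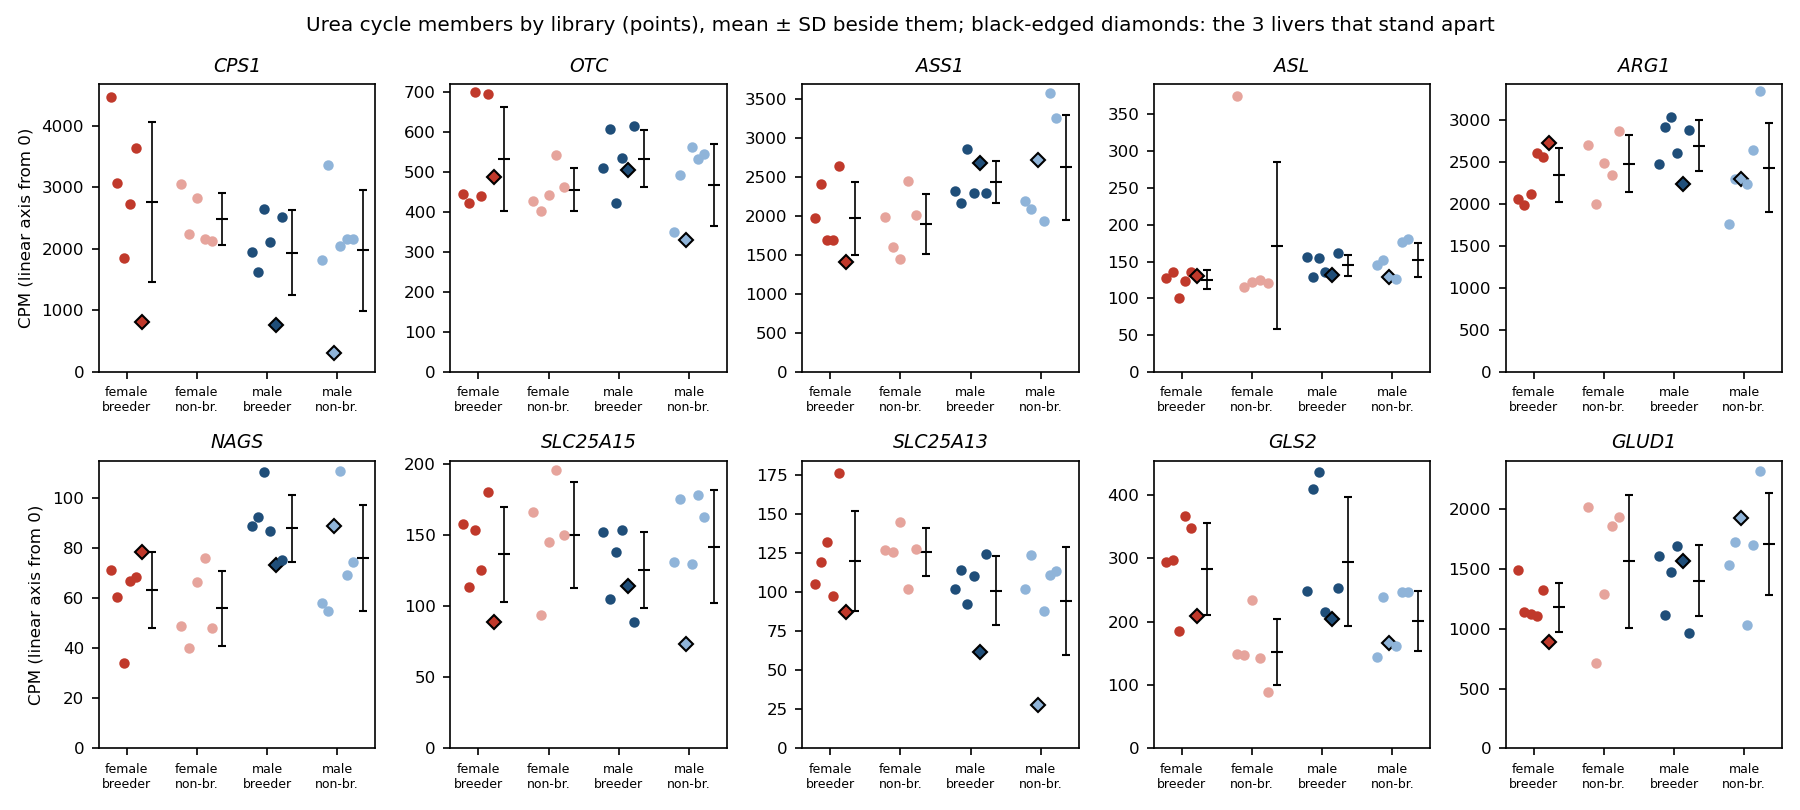
CPM of the 10 members in each of the 23 livers (points, linear axis from 0), by group, with the group mean ± SD beside the points and the 3 livers that stand apart as black-edged diamonds. The 3 diamonds are the lowest CPS1 values, 1 female non-breeder stands at 375 CPM for ASL, and the groups overlap for every member.

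Among the steps that feed the cycle, GLS2 had the smallest p of any member in the status comparisons. In females it stood at 184, 296 and 366 CPM as the lowest, median and highest of 6 breeders, against 149, 147, 234, 143 and 89.3 CPM in the 5 non-breeders. In males the lowest, median and highest were 204, 251 and 436 CPM in breeders, against 145, 203 and 247 CPM in non-breeders. All 12 breeders lay above the mean of the 11 non-breeders, and 8 of 12 lay above the highest non-breeder, while the lowest breeders of both sexes overlapped the upper non-breeders.

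Over both sexes GLS2 averaged 289 ± 84.6 CPM in the 12 breeders, against 179 ± 53.5 CPM in the 11 non-breeders (mean ± SD). The log2 fold change was 0.72 ± 0.17 (± SE, with a 95% interval of 0.37 to 1.08), or 1.65-fold. Its unadjusted p was 0.000316 and its adjusted p 0.236 with edgeR, short of the threshold, whereas DESeq2 gave an adjusted p of 0.0311. Without the 3 livers the change was 0.78 on the log2 scale, with an edgeR adjusted p of 0.239. The change was 0.89 ± 0.25 in females (edgeR adjusted p 1.0) and 0.55 ± 0.23 in males (edgeR adjusted p 0.791). Their difference, 0.34 ± 0.34, had an unadjusted p of 0.324, so no difference between the sexes was detected in a test with a 95% interval of -0.36 to 1.04.

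GLS2 was also set beside read length, whose part in its level was not tested. All female breeders were sequenced with shorter reads than all non-breeders, so read length cannot be told apart from status in females. Among male breeders the 3 with shorter reads stood at 248, 410.0 and 436 CPM, and the 3 with the longer reads of the non-breeders at 216, 204 and 253 CPM. These ranges overlapped, and how many of all genes differ with read length was not counted. Against the 6 male non-breeders, at 145 to 247 CPM, the 3 longer-read male breeders differed by 0.16 ± 0.26 on the log2 scale. This value covers 3 breeders, 1 of which is among the livers that stand apart, and it was 0.18 ± 0.30 without those livers.

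**Figure D3:**
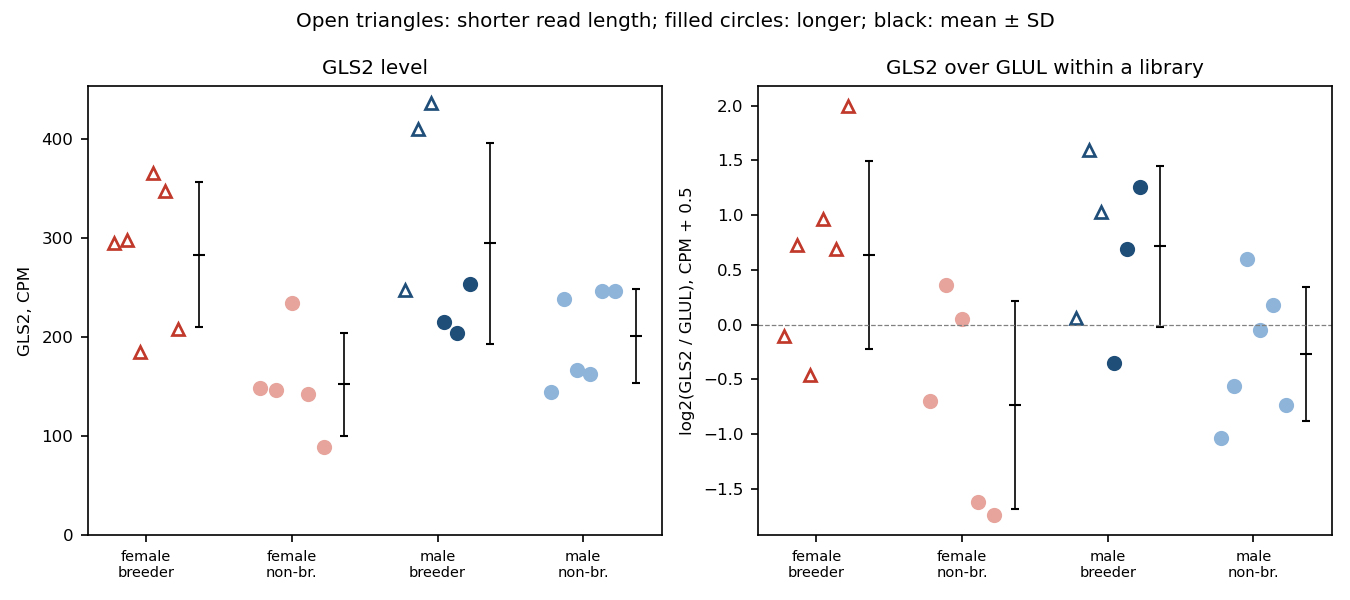
GLS2 CPM (left, linear axis from 0) and log2 ratio of GLS2 to GLUL within a library (right, from CPM + 0.5), for each liver by group, with open triangles for shorter and filled circles for longer reads and the mean ± SD in black. GLS2 is above the mean of the non-breeders in all 12 breeders, the 2 highest male breeders (410.0 and 436 CPM) have shorter reads, and the ratio differs by 1.37 in females and 0.98 in males.

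GLUD1, which releases ammonia from glutamate, had the opposite sign. Its lowest, median and highest levels were 886, 1133 and 1490.2 CPM in 6 female breeders, against 2022, 713, 1293, 1860.3 and 1937 CPM in the 5 female non-breeders. In males they were 965, 1522 and 1694 CPM in breeders, against 1035, 1710.3 and 2323 CPM in non-breeders. The female non-breeders held both nearly the highest and the lowest values of the 23 livers, so the groups overlapped widely, with 11 of 12 breeders below the non-breeder mean. Over both sexes the 12 breeders averaged 1291 ± 269.9 CPM, against 1642 ± 469 CPM for the 11 non-breeders (mean ± SD), with a log2 fold change of -0.35 ± 0.16 (unadjusted p 0.0392, edgeR adjusted p 0.586). Over the other 20 livers it was -0.31 ± 0.17 (unadjusted p 0.0861, edgeR adjusted p 0.614).

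The mRNA levels of GLS2 and GLUL, enzymes that release and capture ammonia, were also compared as a ratio within each library, which does not depend on scaling. The log2 ratio of GLS2 to GLUL was 0.64 ± 0.86 in the 6 female breeders, against -0.73 ± 0.95 in the 5 female non-breeders (mean ± SD), a difference of 1.37 (two-sided exact permutation p 0.039, adjusted over 12 ratio tests 0.156). In males it was 0.71 ± 0.74 in breeders and -0.27 ± 0.62 in non-breeders (SD, n = 6 each), a difference of 0.98 (exact permutation p 0.0346, adjusted 0.156). Both sexes thus gave a higher mean ratio in breeders, and neither passed after adjustment. Leaving out the 3 livers gave a difference of 1.10 in females (exact permutation p 0.0714) and 1.16 in males (exact permutation p 0.0397, adjusted 0.238). The ratio contains GLS2, so it is not separate from the GLS2 result. Read length cannot be told apart from status in females here either. The male breeders with longer reads had ratios of -0.35, 0.69 and 1.26, and those with shorter reads 0.06, 1.60 and 1.03. GLUL itself averaged 201 ± 88.6 CPM in female breeders and 265 ± 119 CPM in female non-breeders, and 182 ± 69.3 CPM in male breeders and 259 ± 115 CPM in male non-breeders (SD, n = 6, 5, 6 and 6), with a log2 fold change of -0.45 ± 0.27 in NMR-BvN (edgeR adjusted p 0.703).

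At the entry to the cycle, NAGS had the smallest p of the members in NMR-FvM and NMR-B-FvM over all 23 livers, while ASS1 had it in NMR-N-FvM. Its lowest, median and highest levels were 34.3, 67.6 and 78.4 CPM in 6 female breeders, against 73.4, 87.9 and 110.4 CPM in 6 male breeders. In non-breeders the 5 females stood at 48.7, 39.9, 66.5, 76.0 and 48.1 CPM, against 54.7, 71.8 and 110.9 CPM as the lowest, median and highest of the 6 males. All 11 females lay below the male mean and 4 of them below the lowest male, yet the ranges overlapped in both statuses.

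NAGS averaged 59.9 ± 14.9 CPM in the 11 females, against 82.0 ± 17.9 CPM in the 12 males (mean ± SD), with a log2 fold change of -0.46 ± 0.14 (95% interval -0.75 to -0.17, unadjusted p 0.0035, edgeR adjusted p 0.281). The change was -0.44 ± 0.21 in non-breeders, which all had the same read length, and -0.48 ± 0.19 in breeders. Without the 3 livers it was -0.49 over both statuses with an edgeR adjusted p of 0.22, and -0.39 ± 0.21 in non-breeders, where the unadjusted p was 0.041 with them and 0.0777 without. Between breeders and non-breeders NAGS differed by 0.19 ± 0.14 on the log2 scale (edgeR adjusted p 0.79). Among male breeders NAGS stood at 88.8 to 110.4 CPM in the 3 with shorter reads and at 73.4 to 86.9 CPM in the 3 with longer reads. These ranges did not overlap, but how many of all genes separate in this way was not counted. The status difference of NAGS in males was 0.21 ± 0.19, and 0.05 ± 0.25 with the longer-read breeders alone.

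Over all 23 livers CPS1 had the widest intervals of the members, with an SE of 0.29 in NMR-BvN, but without the 3 livers its SE was 0.15, below those of ASL and GLS2 (0.18 each) and GLUD1 (0.17). Among female breeders its lowest, median and highest levels were 804, 2905 and 4468 CPM, and the 5 female non-breeders stood at 3049.8, 2251, 2825, 2157 and 2126 CPM. Male breeders had 762, 2032 and 2654 CPM and male non-breeders 304, 2106 and 3369.6 CPM as the lowest, median and highest. The lowest value of 3 groups was in each case the liver that stood apart.

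Breeders and non-breeders differed in CPS1 by 0.06 ± 0.29 on the log2 scale (95% interval -0.53 to 0.65), and by 0.13 without the 3 livers. The 11 females averaged 2634 ± 969 CPM, against 1959 ± 809 CPM in the 12 males (mean ± SD), with a log2 fold change of 0.42 ± 0.29 (edgeR adjusted p 0.603). Without the 3 livers the sex difference was 0.32 ± 0.15 (unadjusted p 0.044, edgeR adjusted p 0.421). It was 0.54 ± 0.21 in breeders alone (unadjusted p 0.0187, edgeR adjusted p 0.385). In non-breeders, which all had the same read length, it was 0.10 ± 0.21 (unadjusted p 0.638, edgeR adjusted p 0.996). All female breeders had shorter reads, but only 3 of the male breeders did. The part of read length in the CPS1 difference between breeders was not tested. The ratio of CPS1 to GLUL, the periportal over the pericentral route of ammonia, differed by 0.38 to 0.62 in the 4 comparisons, with exact permutation p-values of 0.199 or more. The differences were 0.19 to 0.51 without the 3 livers, and with 1 library left out that of NMR-F-BvN ranged from 0.17 to 0.67.

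OTC, which makes citrulline, differed little between the groups. Its mean was 531 ± 130.1 CPM in female breeders and 456 ± 53.0 CPM in female non-breeders, and 533 ± 71.7 CPM in male breeders and 468 ± 103 CPM in male non-breeders (SD, n = 6, 5, 6 and 6). The log2 fold change in NMR-BvN was 0.20 ± 0.12 (edgeR adjusted p 0.695), and in NMR-FvM it was -0.02 ± 0.12. SLC25A15, the carrier that brings ornithine to OTC, had log2 fold changes of -0.16 ± 0.15 for status and 0.10 ± 0.15 for sex, both with intervals across 0.

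SLC25A13, the hepatic aspartate carrier, ranged from 87.2 to 177 CPM in female breeders, from 102 to 145 CPM in female non-breeders, from 61.8 to 125 CPM in male breeders and from 27.9 to 123 CPM in male non-breeders. The 11 females averaged 122 ± 24.9 CPM, against 97.6 ± 27.9 CPM in the 12 males (mean ± SD), with 10 of 11 females above the male mean. The log2 fold change was 0.33 ± 0.18 (edgeR adjusted p 0.51) and shrank to 0.22 ± 0.10 without the 3 livers (unadjusted p 0.0426, edgeR adjusted p 0.417). Its paralog SLC25A12, which serves other tissues, stayed between 2.57 and 9.35 CPM.

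ASS1, which commits citrulline and aspartate to arginine synthesis, was lower in females in the same sense as NAGS. Its lowest, median and highest levels were 1414, 1833 and 2638 CPM in female breeders, against 2169, 2310 and 2862 CPM in male breeders. The 5 female non-breeders had 1985, 1602, 1452, 2448 and 2011 CPM, against 1936, 2452 and 3581 CPM as the lowest, median and highest of the male non-breeders. Of the 11 females 10 lay below the male mean and 5 below the lowest male, and the highest females overlapped the males.

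ASS1 averaged 1939 ± 416 CPM in the 11 females, against 2533 ± 500.3 CPM in the 12 males (mean ± SD), with a log2 fold change of -0.39 ± 0.13 (95% interval -0.65 to -0.13, unadjusted p 0.00558, edgeR adjusted p 0.304). It was -0.47 ± 0.18 in non-breeders and -0.31 ± 0.17 in breeders, and -0.33 ± 0.13 over both without the 3 livers. For ARG1 the sex difference was -0.09 ± 0.10 over both statuses, and -0.20 ± 0.14 in breeders (-0.30 ± 0.15 without the 3 livers, beside -0.20 ± 0.19 for ASS1 there). The log2 ratio of ARG1 to ASS1 was 0.40 ± 0.31 in the 5 female non-breeders, against -0.10 ± 0.27 in the 6 male non-breeders (mean ± SD), a difference of 0.50 (exact permutation p 0.0238, adjusted 0.156). In breeders the ratio differed by 0.13 (exact permutation p 0.552), and by -0.087 without the 3 livers.

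ASL, which releases fumarate and arginine, owed its spread to a single animal. The 5 female non-breeders stood at 375, 116, 123, 125 and 120 CPM, and the other 18 livers of the series between 100.5 and 180.0 CPM. Female non-breeder 1, at 375 CPM, was thus above every other liver, and it was the youngest animal of the series at 2.4 years. In a fit with age beside the 4 groups, ASL had a log2 slope of -0.50 ± 0.12 per year (unadjusted p 0.000542, edgeR adjusted p 0.578), and -0.17 ± 0.09 without that animal.

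Leaving that animal out also changed the ASL comparisons. The status difference in females was -0.45 ± 0.23 with it and 0.05 ± 0.12 without it. The sex difference over both statuses was -0.02 ± 0.16 with it and -0.27 ± 0.08 without it (unadjusted p 0.00295, edgeR adjusted p 0.241). Along age, 1 of 10 members was below an unadjusted p of 0.05, beside 8.02% of all genes, and 0 of 10 passed the adjusted threshold, beside 0.0% of all genes. Slopes were below 0 for 9 of 10 members, with a median of -0.15 per year over the members and 0.01 over all genes tested, of which 51.2% were above 0. This was not particular to the members. Below 0 were also 11 of 14 aspartate, malate and fumarate genes (median -0.12) and 13 of 16 regulators (median -0.12). So were 18 of 25 nitrogen-releasing genes (median -0.06) and 6 of 8 hepatocyte markers (median -0.13). Ornithine, arginine and polyamine genes went the other way, with 14 of 23 above 0 (median 0.04). Without the 3 livers that stand apart the members' median was -0.12. The lowest slope was that of CPS1, at -0.55 per year, and at -0.35 without male non-breeder 3. Male non-breeder 3 and male breeder 5, 2 of the 3 livers with the lowest CPS1, came from the oldest animals, at 4.1 years. Female breeder 6, the other of the 3, was 3.3 years old, the lowest age among female breeders (3.3 to 3.7 years). The part of age in the low CPS1 was not tested.

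ARG1, the enzyme that releases urea, was among the steadiest. It averaged 2344 ± 318 CPM in female breeders, 2481 ± 336 CPM in female non-breeders, 2694 ± 307 CPM in male breeders and 2432 ± 529.7 CPM in male non-breeders (SD, n = 6, 5, 6 and 6). The log2 fold changes were 0.03 ± 0.10 for status (95% interval -0.18 to 0.24) and -0.09 ± 0.10 for sex (95% interval -0.30 to 0.12). ARG2, the mitochondrial arginase typical of other tissues, stayed below 1 CPM in every liver, with a highest value of 0.931 CPM.

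**Figure D4:**
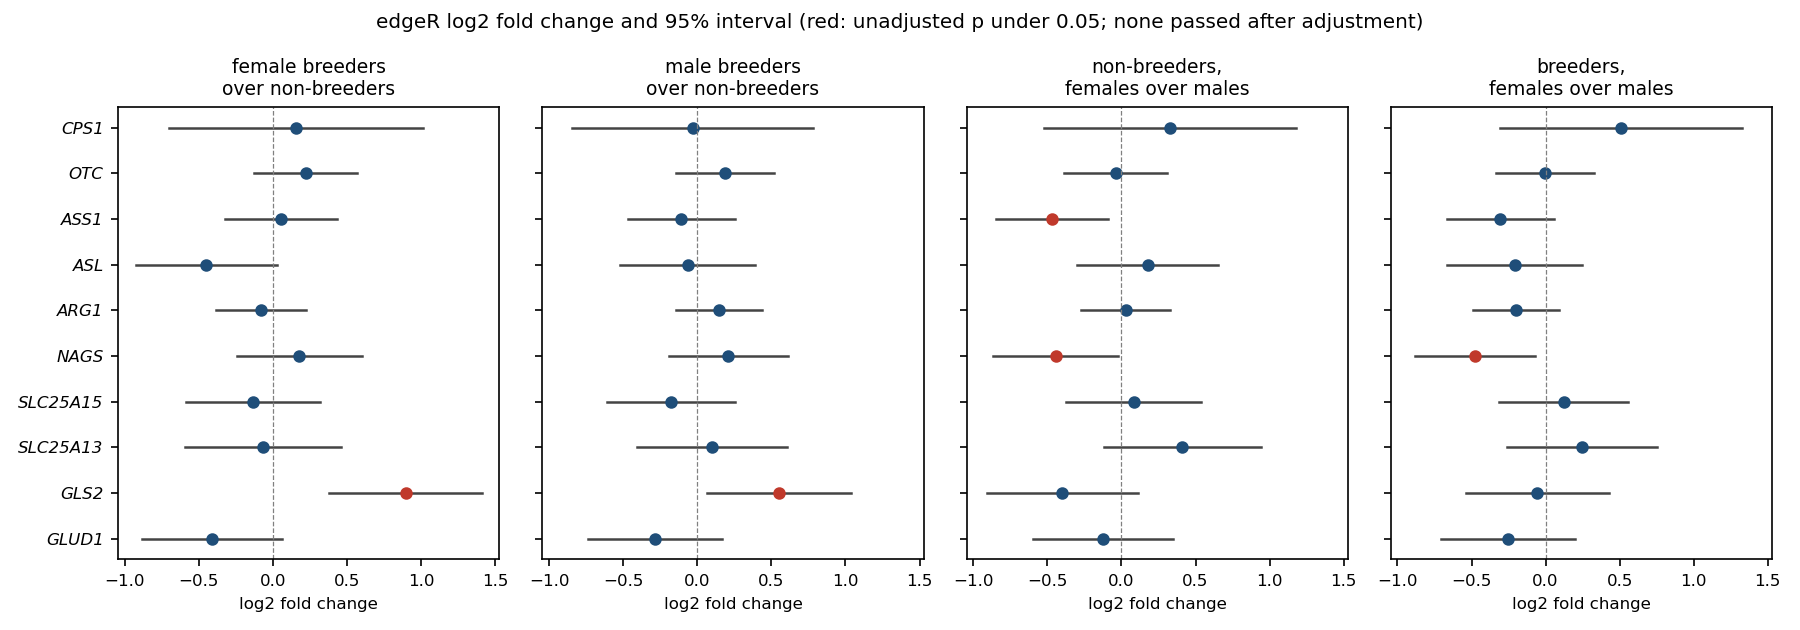
Log2 fold change (points) with its 95% interval (lines) from edgeR for the 10 members in breeders over non-breeders of each sex and in females over males of each status, with points in red where the unadjusted p is under 0.05. GLS2 is the red point of both status panels (0.89 and 0.55), ASS1 and NAGS are red in non-breeders (-0.47 and -0.44), NAGS is red in breeders (-0.48), and CPS1 has the widest intervals over these 23 livers.

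The members did not move together by status or sex. In NMR-BvN 6 of 10 had a log2 fold change above 0, with a median of 0.02 beside -0.00 over all genes, and in NMR-FvM 3 of 10 were above 0, with a median of -0.05 beside 0.02. In the difference of the status changes between the sexes, 0 of 10 were below an unadjusted p of 0.05, beside 1.85% of all genes, and 0.0% of all genes passed the adjusted threshold. The order of the group means differed from member to member, and of 30 steps between neighbouring group means 3 exceeded 1 pooled SD: male breeders over female breeders for ASS1 and ASL, and female breeders over male non-breeders for GLS2.

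How members varied together from liver to liver was examined on log2 CPM after group means were removed. Of 45 pairs, 36 had a Pearson r above 0, with a median of 0.21, whereas the median r of a member with all other genes lay between -0.02 and 0.03. Other sets of liver genes were not compared in this way, so the value cannot be called particular to the members. None of the 45 passed after adjustment on Pearson's r, and 2 passed on Spearman's rho. CPS1 and SLC25A13 had r = 0.83 (permutation p 0.00205, adjusted 0.0922) and rho = 0.56 (permutation p 0.0134, adjusted 0.1) over 23 livers. That relation rested on the 3 livers that stand apart, since r was 0.16 over the other 20.

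SLC25A15 and GLUD1 behaved in the other way. Over 23 livers r was 0.58 (permutation p 0.0105, adjusted 0.11) and rho 0.56 (permutation p 0.00884, adjusted 0.0994), and over the other 20 livers r was 0.82 (permutation p 0.00013, adjusted 0.00585) and rho 0.71 (permutation p 0.00219, adjusted 0.0985). Without the 2 livers farthest from the median of SLC25A15 as well, r was 0.69 over 18 livers. ASS1 and GLUD1 had r = 0.59 (permutation p 0.0041, adjusted 0.0922) and rho = 0.65 (permutation p 0.00205, adjusted 0.0461) over 23 livers, and r = 0.65 without the 2 farthest livers. ASS1 and GLUD1 no longer passed without the 3 livers, with r = 0.55 (permutation p 0.024, adjusted 0.36) and rho = 0.64 (permutation p 0.00551, adjusted 0.124). CPS1 and ASL had rho = 0.59 (permutation p 0.00198, adjusted 0.0461) but r = 0.28 (permutation p 0.0222, adjusted 0.143), and r = 0.35 without the 2 farthest livers. That call was lost too without the 3 livers, with rho = 0.51 (permutation p 0.016, adjusted 0.199).

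**Figure D5:**
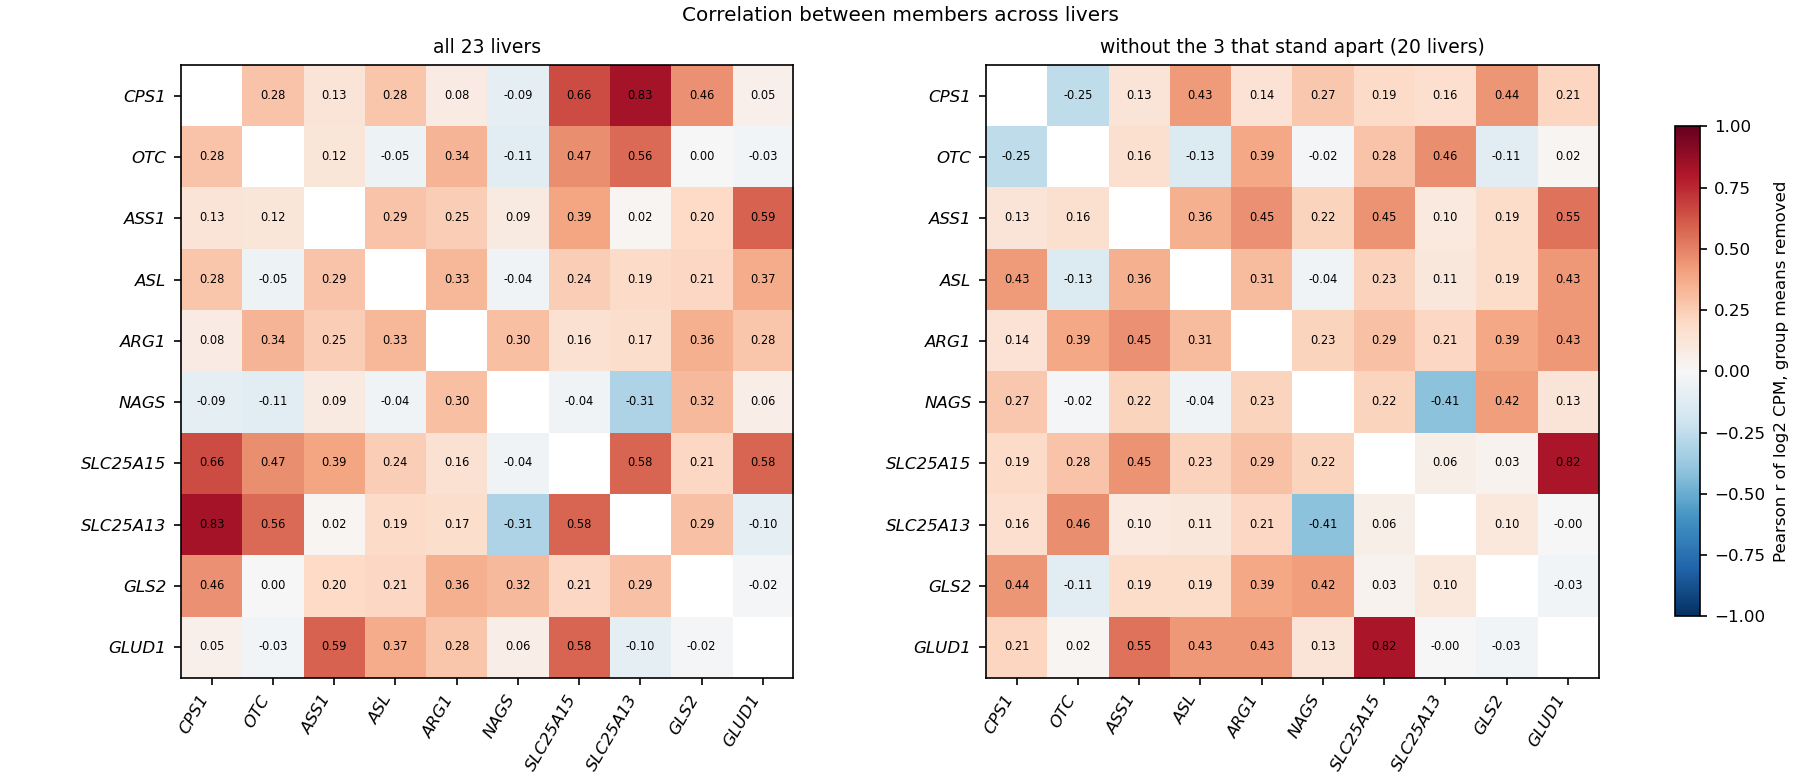
Pearson r of log2 CPM between members across livers after removal of group means (colour from -1 to 1, value in each cell), over all 23 livers on the left and over the 20 livers without the 3 that stand apart on the right. CPS1 with SLC25A13 is 0.83 on the left and 0.16 on the right, and SLC25A15 with GLUD1 is 0.58 on the left and 0.82 on the right.

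Among the genes most like each member over the 23 livers, by r with group means removed, were SLC39A9, AASS and TAF5L for CPS1 (0.96, 0.96 and 0.95), SOD2, TFAM and SYNCRIP for SLC25A13 (0.94, 0.93 and 0.93), and EPB41L4B, CUL3 and C14orf119 for SLC25A15 (0.92, 0.92 and 0.90). For GLUD1 they were ABCD4, XXYLT1 and MCM6 (0.88, 0.88 and 0.86), for OTC NDFIP2, VPS35 and ACSL3 (0.86, 0.86 and 0.84), and for NAGS BCAR1, SLIT3 and GLTPD2 (0.83, 0.79 and 0.79). BDH1, HPS6 and SLC37A4 were nearest to ARG1 (0.79, 0.75 and 0.70), PTCRA and ECH1 to ASL (0.79 and 0.74), PLA1A, CALCOCO2 and KNG1 to ASS1 (0.78, 0.77 and 0.77), and ATG14, CAMK2B and IRAK2 to GLS2 (0.71, 0.70 and 0.70). The 3 genes nearest to CPS1 had r between 0.70 and 0.72 over the 20 livers without the 3 that stand apart. Over those 20 livers SOD2, TFAM and SYNCRIP had r of 0.60, 0.58 and 0.71 with SLC25A13. The genes named were picked as those with the highest r of 12305 over the 23 livers, and the values are a description.

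Genes around the cycle were tallied from 7 lists of its neighbouring pathways and liver zones, which hold 101 tested genes beside the members. With edgeR 0 of the 101 passed an adjusted p of 0.05 in any comparison, and 12 were below an unadjusted p of 0.05 in NMR-BvN and 15 in NMR-FvM, beside 7.94% and 10.4% of all genes. DESeq2 called 1 of 107 in each of those comparisons, CYP2E1 and SLC25A10, beside 0.232% and 0.468% of all genes. In single directions, 4.25% of all genes were higher and 3.69% lower at an unadjusted p of 0.05 in NMR-BvN, and 6.23% lower in NMR-FvM. Of 23 tested genes of ornithine, arginine and polyamine metabolism, 2 were higher and 1 lower at an unadjusted p of 0.05 in NMR-BvN. The lower one was PYCR1, a proline-making reductase, with 16.7 ± 6.28 CPM in female breeders and 31.1 ± 13.4 CPM in female non-breeders (SD, n = 6 and 5), and 20.7 ± 3.53 CPM in male breeders and 27.3 ± 7.81 CPM in male non-breeders (SD, n = 6 each), a log2 fold change of -0.65 ± 0.18 over both sexes (unadjusted p 0.00166, edgeR adjusted p 0.321). Of 25 tested genes that release nitrogen from amino acids, 19 had a log2 fold change above 0 in NMR-BvN and 5 were higher at an unadjusted p of 0.05, with a median of 0.09 beside -0.00 over all genes, of which 48.7% were above 0. In NMR-FvM 6 of the 25 were lower at that level. The smallest p in NMR-BvN belonged to AADAT, an aminotransferase of the lysine and kynurenine routes (0.29 ± 0.11, edgeR adjusted p 0.451).

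Of 14 tested carriers and enzymes that handle aspartate, malate and fumarate, 1 was lower at an unadjusted p of 0.05 in NMR-BvN. This was PC, pyruvate carboxylase, at -0.71 ± 0.22 on the log2 scale (edgeR adjusted p 0.348). Between the sexes, 2 of the 14 were lower in females at that level in NMR-FvM, with SLC25A10, the dicarboxylate carrier, at -0.28 ± 0.08 (edgeR adjusted p 0.235). The aspartate aminotransferases GOT1 and GOT2 had log2 fold changes of 0.13 ± 0.12 and -0.13 ± 0.11 in NMR-BvN.

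Of 10 tested genes of ammonia, bicarbonate and glutamine handling, 1 was lower at an unadjusted p of 0.05 in NMR-BvN and 7 had a log2 fold change below 0. CA5A, the mitochondrial carbonic anhydrase that supplies bicarbonate to CPS1, had a log2 fold change of -0.30 ± 0.28 (edgeR adjusted p 0.869). Of 16 tested regulators of the cycle 0 were below an unadjusted p of 0.05 in NMR-BvN, and HNF4A, a hepatocyte transcription factor, had a log2 fold change of -0.12 ± 0.22. The 9 tested periportal genes, which hold no member, had a median of -0.35 with 7 below 0, and the 9 tested pericentral genes, GLUL among them, a median of -0.18 with 7 below 0. Markers of most cell types were also mostly below 0 in NMR-BvN. Among them were 8 of 8 hepatocyte markers (median -0.19, 2 at an unadjusted p of 0.05) and 8 of 9 tested macrophage markers (median -0.33, 2 at that level). So were 7 of 8 endothelial markers (median -0.08, 1 at that level) and 5 of 8 stellate and fibroblast markers (median -0.26, 2 at that level). The same held for 5 of 5 red-cell, 4 of 5 neutrophil, 3 of 4 lymphocyte and 4 of 5 cholangiocyte markers. Skeletal muscle markers went the other way, with 3 of 3 tested above 0 (median 1.23, 1 at that level). In NMR-M-BvN all 8 stellate markers were below 0 (median -0.68, 3 at an unadjusted p of 0.05). So were 4 of 5 neutrophil markers (median -1.54, 3 at that level) and 8 of 9 macrophage markers (median -0.44, 2 at that level). All 8 hepatocyte, 8 endothelial and 5 red-cell markers, 3 of 4 lymphocyte and 4 of 5 cholangiocyte markers were below 0 too. Of 3 tested skeletal muscle markers, 2 were above 0. Of all 12306 genes, 395 were lower at that level in NMR-M-BvN, and 46.6% were above 0. In NMR-B-FvM all 8 stellate markers were above 0 (median 0.62, 4 at that level). So were all 9 tested macrophage, 8 endothelial, 5 neutrophil, 4 lymphocyte and 3 skeletal muscle markers, and 4 of 5 cholangiocyte markers. Going the other way, 5 of 8 hepatocyte and 5 of 5 red-cell markers were below 0. Of all 12306 genes, 405 were higher at that level in NMR-B-FvM, and 54.4% were above 0. None passed an adjusted p of 0.05 with edgeR, and their part in the members' values was not tested.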

How the data were processed

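Liver RNA was sequenced single-end from 23 naked mole-rats after poly(A) selection, with an unstranded kit. Reads were aligned with STAR 2.4.1d per the submitters' processing notes, reads mapping to several places were discarded, and HTSeq counted the rest on a transcript catalogue of the species. The authors deposited these counts without normalization. Since strand was not kept, sense and antisense reads at overlapping genes were not separated. The genome build of the counts was not matched to a reference here, so no coordinates or sequences are given. All 10 member symbols were found in the RefSeq gene table.

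Library totals lay between 11826665 and 22969366 counts. Of 16339 rows, 803 had no count, and 25 rows named by a date (0.143% of the counts) were tested but are left unnamed. No column of the table was left unused (0). The tests ran in edgeR 4.0.16 under R 4.3.3: filterByExpr (minimum count 10, minimum total 15), TMM scaling, 1 fit of all 23 libraries with 4 group means, the robust quasi-likelihood F-test (two-sided) and Benjamini-Hochberg adjustment over 12306 genes at 0.05. Each SE is the size of a log2 fold change divided by the root of its F value. Log2 CPM used a prior count of 2 and ratios CPM + 0.5. Correlations used 100000 permutations within groups. The fit was tested on simulated data.

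Groups came from the titles and libraries were treated as different animals. Which animals share a litter is not in the labels, and read lengths came from the study's list of libraries. The members and lists were chosen with earlier results of these data known. Named genes were all members, a fixed set of related genes, the genes of smallest p in 7 lists, some left out for length, and the 3 genes most like each member. Some genes under this rule are not reported here. CYP2E1 and SLC25A10 are also named for passing in DESeq2, and MTRNR2L4 was named after its values were seen. Alternatives were other scalings, no filter, DESeq2 1.42.0, voom in limma 3.58.1, a threshold of 0.01, age as a covariate, 2-group fits, each library left out, the 3 livers left out and male breeders of 1 read length.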

Additional observations from a re-analysis of the deposited data

Results flagged for a closer look

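In 40 sets of CPM values, 1 for each member in each group, the lowest and the highest liver were compared with the rest of their group by the size of the gap (Dixon's criterion at 95%), and 3 stood out, where chance marks about 1 in 20. ASL in female non-breeder 1 was 375 CPM against 116 to 125 CPM in the other 4. ASL in female breeder 3 was 100.5 CPM against 123 to 136 CPM in the other 5. SLC25A13 in male non-breeder 3, 1 of the 3 livers that stand apart, was 27.9 CPM against 88.0 to 123 CPM in the other 5.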

How the results depend on the processing

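The count of members past the threshold stayed at 0 in every comparison under the other scalings, the other filter, voom, the threshold of 0.01, the age covariate, the 2-group fits and each library left out. With DESeq2 it was 1 in NMR-BvN (GLS2), and the cause was not tested. Over the 32 settings run for NMR-BvN, which do not include 1 read length, GLS2 had a log2 fold change of 0.65 to 0.83 and adjusted p-values of 0.0311 to 0.434. In NMR-M-BvN it ranged from 0.16, with male breeders of 1 read length, to 0.65. The difference in the ratio of ARG1 to ASS1 in NMR-B-FvM, 0.13, was -0.087 without the 3 livers that stand apart and ranged from -0.0056 (without female breeder 6) to 0.24 with 1 library left out. That of GLS2 to GLUL in NMR-B-FvM, -0.08, ranged from -0.35 to 0.14 with 1 library left out, and was above 0 without female breeder 1 (0.07), female breeder 3 (0.14), male breeder 2 (0.10) or male breeder 6 (0.03). Neither was past a threshold. Pairs of members past the threshold on Pearson's r counted 0, and 1 without the 3 livers (SLC25A15 with GLUD1). Alternatives added after seeing the data were the read-length fit without the 3 livers, the fit without these 3 and female non-breeder 1, and the coefficient of variation without the 3. Groups of 5 or 6 and between-animal variation limit what could be detected. No paired analysis was possible because the titles give each animal a number of its own that no other group shares.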

Other observations

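Outside the members, CYP2E1, a pericentral cytochrome P450, spanned a wide range in all 4 groups. Its lowest, median and highest levels were 0.637, 121 and 845 CPM in 6 female breeders, and the 5 female non-breeders ranged from 6.60 to 15907 CPM around a median of 5026 CPM. Male breeders had 8.14, 83.6 and 2460 CPM and male non-breeders 12.5, 6361 and 11725 CPM as the lowest, median and highest. The ranges overlapped in both sexes, and the log2 fold change in NMR-BvN was -4.33 ± 1.21 (edgeR adjusted p 0.321, DESeq2 adjusted p 0.022).

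Skeletal muscle markers, 7 of 8 present and 3 tested, gave 0.881 to 21.8 summed CPM in female breeders, 0.967 to 2.51 in female non-breeders, 0.978 to 6.36 in male breeders and 0.816 to 3.66 in male non-breeders. Neutrophil markers, 5 of 6 present, summed to 18.2 to 82.8 CPM in female breeders, 21.2 to 161 CPM in female non-breeders, no more than 76.3 CPM in male breeders and 22.3 to 261 CPM in male non-breeders, the last value in male non-breeder 3. Their part in the members' levels was not tested.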
